A study of Mus musculus with 2 samples.

Results

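The genes described here are 9 cell-surface receptors for purine and pyrimidine nucleotides or adenosine, and Entpd1, the ectonucleotidase also known as CD39. They were taken by name from a list (P2rx4, P2rx7, P2ry2, P2ry6, P2ry12, P2ry13, P2ry14, Adora2a, Adora2b and Entpd1), and all 10 were found among the 34714 genes of the expression table. Bone marrow-derived macrophages of C57BL/6 mice were grown with the macrophage growth factor M-CSF, murine and at 20 ng/mL, and then kept for 24 h with the anti-mouse CD40 antibody FGK45 or, as control, with IgG. RNA sequencing gave 1 library per group, so no difference below has a replicate check, no test was possible, and "higher" and "lower" compare 2 libraries. All cells of both groups had M-CSF. The labels used here give no age, number of mice or IgG clone, and with 1 culture per group an effect of the antibody and a difference between cultures cannot be told apart. In such bulk RNA, fewer cells of a type and less RNA per cell cannot be told apart either.

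Cells release ATP, ADP, UTP, UDP and UDP-glucose when they are stressed, dying or activated, and neighbouring cells read these nucleotides through P2X and P2Y receptors. P2X receptors are cation channels that ATP opens, and P2Y receptors are G protein-coupled receptors with different nucleotide preferences. On the cell surface, CD39 removes phosphates from ATP and ADP to leave AMP, and CD73 (Nt5e) turns AMP into adenosine, whose receptors Adora2a and Adora2b raise cyclic AMP and restrain macrophage activation. In macrophages, P2X7 is best known for the release of interleukin-1 beta after NLRP3 inflammasome assembly.

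Values are FPKM, fragments scaled by transcript length and library size, so levels of different genes can be set side by side within a library. About 6.16 gigabases of aligned sequence in the anti-CD40 library and 5.58 in the IgG library follow from the steps in which the deposited values rise. Approximate fragment numbers per gene were derived from these depths. Intervals are 95% exact intervals on such fragment numbers, and they cover counting error only, not the spread between cultures. All 8 macrophage markers on the list used to check the cells (Adgre1, Csf1r, Cd68, Itgam, Mertk, Fcgr1, Cd14 and Lyz2) were at 1 FPKM or more. Their summed levels were 15217 FPKM after anti-CD40 and 12921 after IgG, of which Lyz2 alone gave 13423 and 11326. Of the other markers, Cd14 had 333 FPKM after anti-CD40 against 244 after IgG, Csf1r 333 in each library, and Fcgr1 27.1 against 30.3. Of 6 dendritic cell markers none reached 1 FPKM and Flt3 was listed at 0, and of 6 T cell markers only Cd4 did, with Cd3e, Cd3d, Cd3g and Cd8a at 0. Of 5 osteoclast markers 3 reached 1 FPKM, with sums of 55.1 and 50.2 FPKM, the endothelial marker Vwf had 12.1 and 14.7, and Hba-a1 of the erythroid list had 1.18 and 2.91. In 9101 genes each library had at least 1 FPKM, and over these the median ratio of anti-CD40 to IgG was 1.11 and the median log2 ratio of (FPKM + 1) was 0.12. A gene that stood exactly with the others therefore appears slightly higher with anti-CD40.

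Several of these genes lie beside each other in the mouse genome. P2rx7 (chromosome 5, 122643927 to 122692336, GRCm38.p6) and P2rx4 (122707518 to 122729739) are on the plus strand with a gap of 15.2 kb. P2ry14 (chromosome 3, 59114623 to 59153492), P2ry13 (59207892 to 59210882) and P2ry12 (59216271 to 59262985) lie on the minus strand inside the span of Med12l, a gene of the plus strand, and 5.4 kb separate P2ry13 from P2ry12. P2ry6 (chromosome 7, 100937630 to 100975498) and P2ry2 (100996568 to 101012053) are 21.1 kb apart on the minus strand. Adora2a is on chromosome 10 (75316877 to 75334792), Adora2b on chromosome 11 (62248984 to 62266452) and Entpd1 on chromosome 19 (40612366 to 40741602).

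The 250 bases upstream of an annotated transcript start are shown for 2 pairs of neighbours whose levels in the same libraries lay far apart. P2rx4 and P2rx7 differ about 10.6-fold with anti-CD40, and P2ry13 and P2ry12 differ 6.33-fold. P2ry6 and P2ry2 lay farther apart, 24.3-fold with anti-CD40, but no window was given for P2ry6. Sequences are from RefSeq on GRCm38.p6, written 5′ to 3′ on the strand of the gene, and capitals mark a match to the AP-1 motif TGANTCA. The windows are chr5:122707294-122707543 (plus), chr5:122643677-122643926 (plus), chr3:59210883-59211132 (minus) and chr3:59262986-59263235 (minus). The window of P2rx4 precedes a transcript start that lies inside the gene as given above, so its last bases fall within the gene. P2rx7 has another annotated start whose window is not shown.
P2rx4: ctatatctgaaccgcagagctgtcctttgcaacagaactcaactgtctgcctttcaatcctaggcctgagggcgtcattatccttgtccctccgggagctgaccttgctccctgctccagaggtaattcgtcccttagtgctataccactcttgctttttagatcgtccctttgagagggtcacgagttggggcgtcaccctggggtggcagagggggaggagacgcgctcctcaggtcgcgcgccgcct
P2rx7: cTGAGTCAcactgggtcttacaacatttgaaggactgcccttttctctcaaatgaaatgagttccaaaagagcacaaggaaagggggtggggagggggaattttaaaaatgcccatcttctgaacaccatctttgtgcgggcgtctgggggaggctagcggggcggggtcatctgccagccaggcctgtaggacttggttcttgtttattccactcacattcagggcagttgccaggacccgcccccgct
P2ry13: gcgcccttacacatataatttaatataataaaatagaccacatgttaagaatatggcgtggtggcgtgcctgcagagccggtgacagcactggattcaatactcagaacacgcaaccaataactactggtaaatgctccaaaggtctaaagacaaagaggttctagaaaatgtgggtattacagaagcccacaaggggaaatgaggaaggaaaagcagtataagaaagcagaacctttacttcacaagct
P2ry12: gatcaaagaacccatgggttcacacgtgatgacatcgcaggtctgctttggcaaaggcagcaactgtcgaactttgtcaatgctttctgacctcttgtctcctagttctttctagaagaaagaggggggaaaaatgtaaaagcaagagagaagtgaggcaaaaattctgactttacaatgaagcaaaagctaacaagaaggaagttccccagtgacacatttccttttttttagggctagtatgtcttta

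The window of P2rx4 held 13 CG dinucleotides at 57.2% GC and that of P2rx7 held 6 at 53.6%. Those of P2ry13 and P2ry12 were both at 41.6% GC, with 5 and 3 CG dinucleotides. The median of all 32851 windows of this length was 52.4% GC with 6 CG dinucleotides. On both strands, 4 motifs were searched: the PU.1 core GAGGAAGT, found in 2.44% of all windows, the AP-1 site TGANTCA, in 6.75%, an NF-kB site written as GGGNN followed directly by TTTCC, in 1.41%, and the cyclic AMP response element TGACGTCA, in 1.55%. The motifs do not contain each other. Windows were given for 8 of the 10 genes, all but P2ry6 and Adora2a. Of the 14 windows in all, 3 held a match, always to the AP-1 motif: the shown window of P2rx7 and 2 of the 4 windows of P2ry14. A match describes the letters of a window and is no evidence of a bound factor.

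P2ry6 and P2rx4 were the most abundant of the 10 transcripts in both libraries. P2ry6 encodes the UDP receptor, which couples to Gq and calcium release. Its level was 95.2 FPKM after anti-CD40 and 117 after IgG. P2rx4 encodes an ATP-gated channel that resides largely in lysosomes, and it stood at 85.5 and 92.1 FPKM. These levels were at percentiles 98.1 (P2ry6) and 97.9 (P2rx4) of all genes in the anti-CD40 library. Entpd1 followed with 24.5 and 22.4 FPKM, and P2rx7, which needs high concentrations of ATP, with 8.07 and 7.06.

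P2ry2, the receptor for ATP and UTP, had 3.92 FPKM after anti-CD40 and 3.41 after IgG. P2ry14, the receptor for UDP-glucose, had 2.99 and 3.25. The counting intervals of P2ry2 and P2ry14 overlapped in each library, so their order could not be told at this depth. From P2ry6 down to P2ry2, each of the genes stood clear of the next by its counting interval in both libraries, and so did P2ry14 from P2ry13.

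The other 4 genes were below 1 FPKM. P2ry13, a Gi-coupled receptor for ADP, had 0.804 FPKM after anti-CD40 and 0.658 after IgG. Adora2b, an adenosine receptor of low affinity, had 0.375 and 0.432, and Adora2a, the adenosine receptor of high affinity that raises cyclic AMP, had 0.496 and 0.153. P2ry12, the ADP receptor of platelets and microglia, was lowest, at 0.127 and 0.0959. Adora2a and Adora2b held ranks 8 and 9 after anti-CD40 and changed places after IgG, while the other 8 genes kept their rank. With the median transcript lengths, all neighbours in this low range had overlapping counting intervals, so on that basis the exchange of ranks was within counting error.

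**Figure D1:**
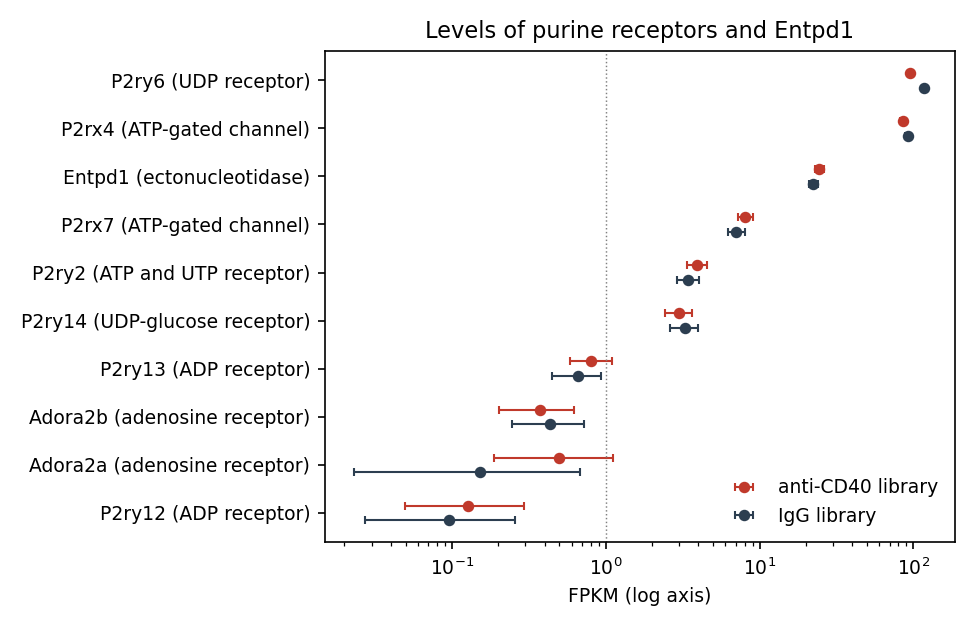
FPKM of the 10 genes on a log axis in the anti-CD40 library (red) and the IgG library (dark), 1 library each; bars are 95% exact Poisson counting intervals and the dotted line marks 1 FPKM. P2ry6 and P2rx4 sit near 100 FPKM, and P2ry13, Adora2b, Adora2a and P2ry12 sit below 1.

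The receptor pool was dominated by 2 genes. Summed over all 20 genes listed by name as P2X, P2Y or adenosine receptors, transcripts came to 201 FPKM after anti-CD40 and 227 after IgG. P2ry6 and P2rx4 made up 89.7% of this sum after anti-CD40 and 92.0% after IgG. P2ry6 alone accounted for 47.2% and 51.5%, and P2rx4 for 42.5% and 40.5%. The other 18 receptor genes together had 20.7 FPKM after anti-CD40 and 18.1 after IgG. The 4 adenosine receptors came to 1.07 and 0.801 FPKM, or 0.533% and 0.352% of the sum.

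Of the 6 genes at 1 FPKM or more, P2ry6 had the log2 ratio farthest from 0. Its level was 1.23-fold lower with anti-CD40 (interval 1.18 to 1.29), resting on about 3802 and 4235 fragments, and the log2 ratio was -0.30. P2rx4 was 1.08-fold lower (interval 1.02 to 1.14), with a log2 ratio of -0.11 and about 2633 and 2566 fragments. The intervals of P2ry6 and P2rx4 lay below 1, and both also left out the median ratio of 1.11. Of 9323 genes at 1 FPKM or more with a known transcript length, an interval that left out 1 was found for 49.4%, lying above 1 for 35.2% and below 1 for 14.1%, and 41.5% left out the median ratio. On the same basis, 2 of the 6 genes at 1 FPKM or more had such an interval, and in both it lay below 1.

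Abundant genes in general stood lower with anti-CD40 than rarer ones, and P2ry6 and P2rx4 are abundant. Among the 860 genes with a mean of 50 to 200 FPKM the median log2 ratio was 0.02, against 0.15 among the 3161 genes between 5 and 20 FPKM and -0.06 among the 346 at 200 or more. Within the 860 genes, 20.0% had a log2 ratio below that of P2ry6 and 34.8% below that of P2rx4. The part of this level dependence in the 2 differences was not tested.

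Ratios within a library do not depend on how the libraries are scaled. P2ry6 exceeded P2rx4 by 1.11-fold after anti-CD40 and 1.27-fold after IgG, a ratio of ratios of 0.875 (interval 0.815 to 0.939). P2ry6 exceeded Entpd1 by 3.88-fold and 5.22-fold (ratio of ratios 0.742, interval 0.663 to 0.830). It exceeded P2ry2, its neighbour on chromosome 7, by 24.3-fold and 34.3-fold (0.708, interval 0.567 to 0.887). P2rx4 exceeded P2rx7 by 10.6-fold and 13-fold (0.812, interval 0.677 to 0.972). P2rx4 exceeded Entpd1 by 3.48-fold and 4.11-fold (0.848, interval 0.755 to 0.953). In these 5 pairs, of 9 computed, the more abundant gene was closer to its partner in the anti-CD40 library, and in the other 4 the interval held 1. Each of the 5 pairs contains P2ry6 or P2rx4, so they restate the lower values of these genes and are not independent results. The part of the level dependence described above in these pairs was not tested.

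P2rx7, P2ry2 and Entpd1 were slightly higher with anti-CD40, close to the median gene. P2rx7 had a ratio of 1.14 (interval 0.964 to 1.36) and a log2 ratio of 0.17. P2ry2 had a ratio of 1.15 (interval 0.920 to 1.43) and a log2 ratio of 0.16. Entpd1 had a ratio of 1.09 (interval 0.989 to 1.21) and a log2 ratio of 0.13, which turned to -0.02 when the libraries were scaled to the same upper quartile. With the longest transcript, which assumes more fragments, the intervals of P2rx7 (1.03 to 1.27) and Entpd1 (1.03 to 1.17) left out 1 but held the median ratio of 1.11. P2ry14 was 1.08-fold lower with an interval on that fold from 0.812 to 1.44, so a difference was not detectable at this depth.

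P2ry13 and P2ry12, the ADP receptors, had ratios of 1.22 (interval 0.753 to 2.02) and 1.32 (interval 0.322 to 6.54). P2ry13 rested on about 42 and 31 fragments and P2ry12 on about 6 and 4, so that neither difference was detectable. P2ry12 turned from 0.04 to -0.08 on the log2 scale when the median gene was set to 0. P2ry1, another ADP receptor outside the list of 10, had 1.83 FPKM after anti-CD40 and 1.40 after IgG, more than P2ry12 and P2ry13 together. Of 6 microglia markers, P2ry12 among them, 1 reached 1 FPKM, the summed levels were 1.37 FPKM after anti-CD40 and 1.15 after IgG, and Sall1 was listed at 0. Of 8 platelet and megakaryocyte markers, 5 reached 1 FPKM and none was listed at 0, with summed levels of 30.0 and 24.7 FPKM. Pf4 (16.4 against 10.5) and Ppbp (2.32 against 1.56) were higher after anti-CD40, and Itga2b (7.77 against 8.29), Gp1bb (1.28 against 2.14) and Gp1ba (1.41 against 1.83) were lower. Their part in the P2ry12 values was not tested.

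Adora2a had the largest ratio of the 10 genes, 3.25, at a level too low to enter the count of genes at 1 FPKM or more. Its log2 ratio of (FPKM + 1) was 0.38. How well the ratio is bounded depends on which transcript the reads came from. With the median length of its coding transcripts, 570 bases, the values stand for about 6 fragments after anti-CD40 and 2 after IgG, and the interval reached from 0.486 to 27.5. With the longest transcript, 2596 bases, they stand for about 26 and 7 fragments, and the interval ran from 1.42 to 9.17. Adora2b, which has 1 annotated transcript and rested on about 14 and 15 fragments, was 1.15-fold lower, with an interval from 0.533 to 2.65 on that fold. The ratio of Adora2a to Adora2b was 1.32 after anti-CD40 and 0.354 after IgG, a ratio of ratios of 3.74. Its interval ran from 0.456 to 36.6 with the median lengths. It was not computed with the longest transcript of Adora2a, which assumes more fragments.

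**Figure D2:**
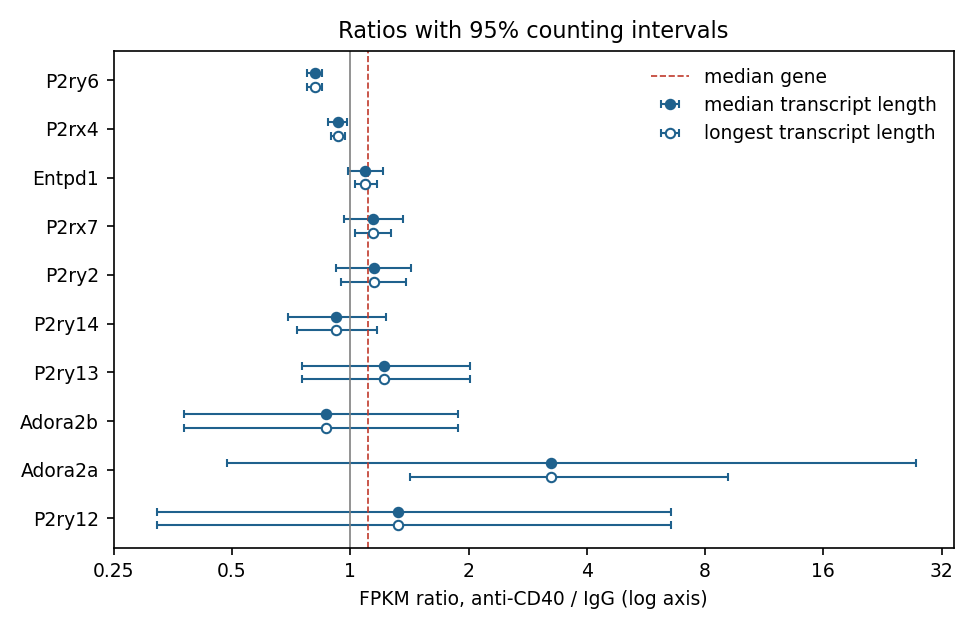
FPKM ratio of anti-CD40 over IgG for the 10 genes on a log axis, 1 library per group, with 95% exact counting intervals for the median (filled) and the longest (open) coding transcript; the grey line marks 1 and the dashed line the median gene at 1.11. The intervals of P2ry6 and P2rx4 lie below 1, and that of Adora2a lies above 1 for the longest transcript but holds 1 for the median length.

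None of the 6 genes at 1 FPKM or more was 1.5-fold apart on the log2 (FPKM + 1) scale. Of all 9591 genes at that level, 4.83% were at least 1.5-fold apart, 2.68% higher after anti-CD40 and 2.15% lower. At 2-fold the shares were 0.563% in all, 0.250% higher and 0.313% lower. With 6 genes, a count of 0 beside such shares says nothing particular about them. The 6 genes had a median log2 ratio of 0.02, against 0.12 over all 9591, and 3 of the 6 were above 0, beside 67.8% of all genes. On that scale P2ry6 was at percentile 9.16 of all 9591 genes and P2rx4 at 20.9, P2ry14 at 22.4, Entpd1 at 50.5, P2ry2 at 56.3 and P2rx7 at 58.7.

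**Figure D3:**
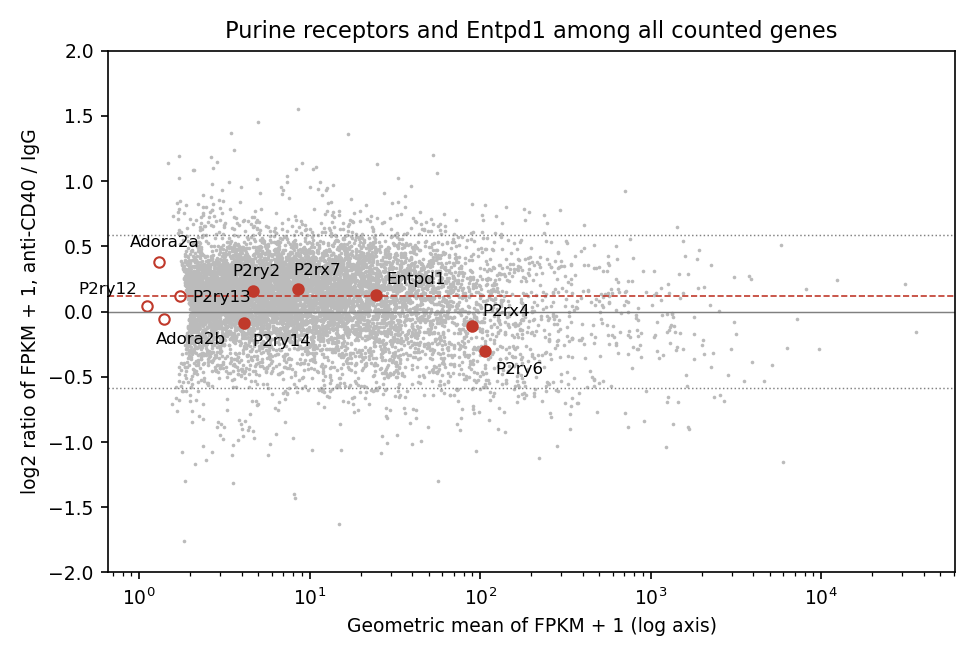
Log2 ratio of (FPKM + 1), anti-CD40 over IgG, against the geometric mean of FPKM + 1 (log axis) for 9591 genes in grey, 5 of them outside the plotted range; the listed genes are red, open where below 1 FPKM. Dotted lines mark 1.5-fold and the dashed line the median of 0.12; all 10 genes lie between the dotted lines.

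Genes that overlap a member are given here because the strand setting of the counting is not given in the sources used here. Whether they affected any of these values was not tested. Camkk2, a kinase gene of the minus strand, overlaps the 3′ part of P2rx4 in the genome and shares 0 exonic bases with it in GENCODE. It had 12 FPKM after anti-CD40 and 12.1 after IgG, a log2 ratio of -0.00. Med12l, which spans P2ry12, P2ry13 and P2ry14, had 0.0201 and 0.0538 FPKM and shares 9 exonic bases with P2ry12. F630111L10Rik, which overlaps P2ry14 and runs past its upstream end, and Gm41846, within Entpd1, were at most at 0.143 FPKM. Mir8115, which shares 119 exonic bases with P2rx7, and the pseudogenes Gm16027 and Gm8783 within Entpd1 have no value in the table used here.

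Receptor relatives outside the list of 10 had at most 1.83 FPKM, the value of P2ry1 after anti-CD40, and 4 of the 10 genes themselves were below 1 FPKM. Of the 7 P2X genes, 2 reached 1 FPKM, P2rx4 and P2rx7. P2rx5 had 0.424 FPKM after anti-CD40 and 0.245 after IgG, P2rx1 had 0.164 and 0.216, and P2rx2 was listed at 0 in both libraries. Of the 9 genes listed as P2Y by name, 5 reached 1 FPKM, with a median log2 ratio of 0.16, 3 higher and 2 lower. This median was 0.04 with the median gene set to 0, and -0.30, the value of P2ry6, with a filter at 5 FPKM. The 3 higher genes were P2ry1 (log2 ratio 0.23), P2ry10b (0.18) and P2ry2 (0.16). P2ry10b had 1.09 and 0.845 FPKM, and P2ry4 and P2ry10 were listed at 0. P2ry10 and P2ry10b are in the list by name only, and whether they respond to nucleotides was not examined. None of the 4 adenosine receptor genes reached 1 FPKM: Adora3 had 0.201 and 0.217, and Adora1 was listed at 0. No gene of these 3 families at 1 FPKM or more was 1.5-fold apart.

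Enzymes that degrade extracellular nucleotides were represented almost solely by Entpd1. Of 12 measured ectonucleotidases and ectophosphatases, 2 reached 1 FPKM, with a median log2 ratio of 0.09. The other was Enpp1, which splits ATP into AMP and pyrophosphate, at 1.14 FPKM after anti-CD40 and 1.05 after IgG. Nt5e, the gene of CD73, was listed at 0 in each library. The 6 genes listed as intracellular nucleoside diphosphatases were all at 1 FPKM or more, with a median of 0.07, 3 higher and 3 lower. That name is a list label, and the substrates of the 6 enzymes were not examined. Entpd6 had 2.78 against 4.13 FPKM, 1.49-fold lower (interval 1.19 to 1.85), and Entpd5 had 2.31 against 1.69. Entpd4 had 7.22 against 8.50 FPKM, but it has a near-identical copy, Entpd4b (6.65 against 6.74), so the single value of each is uncertain. Entpd4 and Entpd4b are both among the 3 lower genes. Entpd7 had 1.52 against 1.21.

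Of 15 genes of channels and transporters that release nucleotides, 8 reached 1 FPKM, with a median log2 ratio of 0.27 against 0.12 over all genes, 6 higher and 2 lower, and 1 past 1.5-fold. The median depended on the settings: it was 0.03 with no filter, 0.12 with a pseudocount of 5 FPKM and 0.51 with a filter at 5 FPKM. The gene past 1.5-fold was Panx1, which encodes the pannexin channel through which ATP leaves cells. It had 16.1 FPKM after anti-CD40 and 9.61 after IgG, a ratio of 1.67 (interval 1.51 to 1.86). The calcium homeostasis modulator genes Calhm6 and Calhm2 had 5.42 against 3.39 and 6.53 against 4.39 FPKM. Lrrc8a, the obligatory subunit of volume-regulated anion channels, had 2.22 against 1.48.

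Genes of adenosine uptake and metabolism numbered 11 of 18 at 1 FPKM or more, with a median of 0.18, 10 higher and 1 lower, and 0 past 1.5-fold. Hprt, a purine salvage enzyme, had 36.2 against 24.0 FPKM (ratio 1.51, interval 1.36 to 1.68), just under 1.5-fold on the scale with a pseudocount. The AMP deaminase gene Ampd3 had 6.30 against 4.72 FPKM. Ada and Adk, which remove adenosine by deamination and phosphorylation, had 1.82 against 1.45 and 2.16 against 1.73. Slc29a1, the main equilibrative nucleoside transporter, was abundant and almost equal, at 94.5 and 93.7 FPKM.

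The list of P2X7 partners, inflammasome genes and interleukin-1 family genes was at 1 FPKM or more in full, 13 of 13, with a median of 0.12, equal to that of all genes. Of these, 9 were higher and 4 lower, with 1 past 1.5-fold and 2-fold, Il1b. Il1b had 13.6 FPKM after anti-CD40 and 4.0 after IgG (interval on the ratio 2.73 to 4.28), while the P2rx7 ratio was 1.14. The sensor gene Nlrp3 had 6.93 against 4.98 FPKM, its partner kinase Nek7 8.37 against 6.85, and the adaptor gene Pycard 38.1 against 47.6.

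G protein subunits of these receptors had a median of 0.11 over 12 of 16 genes, 9 higher and 3 lower, with 0 past 1.5-fold. Gna11, a Gq-class alpha subunit as used by P2Y2 and P2Y6, had 4.91 against 7.13 FPKM, 1.45-fold lower (interval 1.26 to 1.68). Gnb1 had 82.8 against 61.8 FPKM, Gng5 163 against 132 and Gnai3 7.44 against 6.21. In the phospholipase C and calcium list, 9 of 12 genes gave a median of -0.00, 4 higher and 5 lower, with 0 past 1.5-fold. Plcb2, the phospholipase C of blood cells that Gq and beta-gamma subunits activate, had 10.9 against 14.6 FPKM, 1.34-fold lower (interval 1.23 to 1.45). The inositol trisphosphate receptors Itpr2 and Itpr3 went different ways, with 1.14 against 1.58 and 2.33 against 1.91 FPKM, and the calcium sensor gene Stim1 had 6.74 against 5.15.

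On the cyclic AMP side, 11 of 21 enzyme and factor genes gave a median of 0.17, 9 higher and 2 lower, with 0 past 1.5-fold. Prkaca, a catalytic subunit of protein kinase A, had 24.6 against 18.3 FPKM (ratio 1.34, interval 1.21 to 1.49), Pde4b 1.53 against 1.06, Creb1 1.82 against 1.35 and Crem 2.05 against 1.52. Genes known to respond to cyclic AMP, most of which respond to many other stimuli too, gave a median of 0.34 over 10 of 15 genes, which was 0.16 with a pseudocount of 5 FPKM and 0.84 with a filter at 5 FPKM. All 10 had a log2 ratio above 0, beside 67.8% of all genes, and 4 were at least 1.5-fold higher, beside 2.68% of all genes. The 4 were Nr4a1 with 15 against 7.63 FPKM, Odc1 with 22.5 against 11.9, Per1 with 4.21 against 1.91 and Dusp1 with 141 against 79.7. This list, like the others, was chosen with earlier results of these data known, so its counts only describe it. Regulators that switch receptors off gave a median of 0.13 over 12 of 14 measured genes, 7 higher and 5 lower, with 0 past 1.5-fold. Rgs1 had 126 against 90.4 FPKM, Rgs19 28.7 against 37.2, Arrb1 20.4 against 16.5 and Rgs14 4.71 against 3.78.

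**Figure D4:**
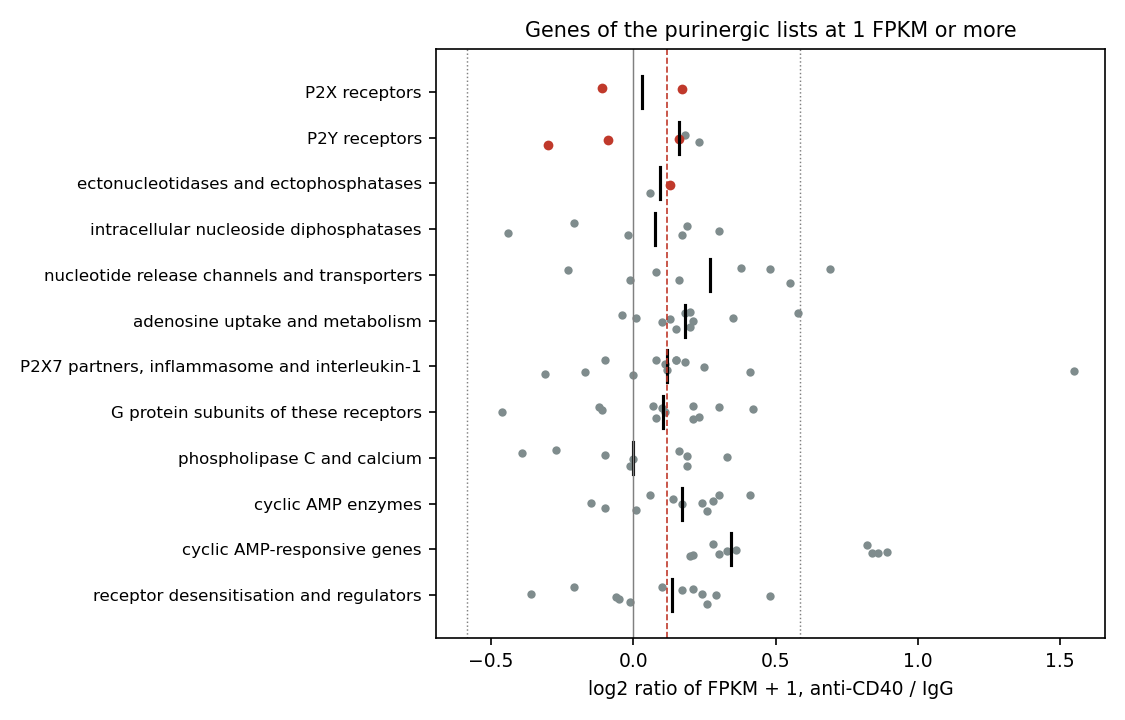
Log2 ratio of (FPKM + 1), anti-CD40 over IgG, for genes at 1 FPKM or more in 12 lists, 1 library per group. The lists hold genes of the purinergic system and others set beside it, such as inflammasome and cyclic AMP-responsive genes. The adenosine receptor list has no gene at that level. Red points belong to the 10 genes and black bars are list medians. The dashed line is the median of all genes (0.12) and dotted lines mark 1.5-fold. The red points lie between -0.30 and 0.17, and the points past the right dotted line are Panx1, Il1b, Nr4a1, Odc1, Per1 and Dusp1.

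With each gene taken once and the 10 genes left out, 93 genes of all lists were at 1 FPKM or more, and their median log2 ratio was 0.17, with 68 higher and 25 lower. Of these, 6 were at least 1.5-fold higher and 0 at least 1.5-fold lower, beside the shares of 2.68% and 2.15% among all genes. Only Panx1 of the 6 is from the release list. Il1b is from the inflammasome and interleukin-1 list, and Nr4a1, Odc1, Per1 and Dusp1 are from the cyclic AMP-responsive list, most of whose genes respond to many other stimuli. The lists were chosen with earlier results of these data known, so the count only describes them. With the median gene set to 0, the medians of the P2X, ectonucleotidase, intracellular diphosphatase and G protein lists turned below 0 (-0.09, -0.02, -0.04 and -0.01), as did that of the 6 genes themselves (-0.10). The medians of the release, adenosine uptake, cyclic AMP and desensitisation lists were above 0 under each alternative run.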

How the data were processed

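Gene expression was measured by RNA sequencing in 2 macrophage libraries, 1 per group. Per the labels' protocols, 1.3 ug of TRIzol-extracted RNA went into a TruSeq preparation. The submitters' processing notes name HISAT2 2.1.0, StringTie and the build mm10. The annotation, strand setting and filters of that step were not given in the sources used here. No unit stands in the header of the single table. The values the authors deposited were taken as FPKM, fragments per kilobase of transcript scaled by library size, because StringTie writes that unit and the column totals differ (529103.5 and 547362.0). Columns were assigned by name, and 0 columns stayed unused. Each of the 34714 gene names has an entry in RefSeq (GRCm38.p6).

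For genes with 1 exon in GENCODE M21 and 1 RefSeq transcript, FPKM times length came out as whole multiples of a fixed step, within 0.05 steps, for 75.3% of 93 low genes (anti-CD40) and 85.9% of 64 (IgG). With a step taken as 0.5 aligned bases and a fragment as 300 bases, this gave 20.5 and 18.6 fragments per FPKM and kilobase. Fragments per gene used the median length of coding transcripts, or the longest as alternative; absolute depths rest on that reading. Intervals are exact conditional binomial (ratios), exact conditional (ratios of ratios) or exact Poisson (levels).

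The log2 ratio used a pseudocount of 1 FPKM, and genes were counted at 1 FPKM or more in either library. The median of all genes is the same, 0.12, over genes at that level in both libraries. The calculations were tested on simulated counts. With 1 library per group, no test was run. Named genes were the 10 genes, overlapping genes, and up to 4 of each list with the largest log2 ratio either way at 1 FPKM or more; others were named after their values were seen, and the ranges of mean level were also chosen then. The members and lists were chosen with earlier results of these data known. Computation used Python 3.11.15, pandas 2.3.3 and SciPy 1.17.1.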

Additional observations from a re-analysis of the deposited data

How the results depend on the processing

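No paired analysis was possible because each group has 1 library, and for the same reason no library could be left out. The 8 alternatives were a pseudocount of 0.1 or of 5 FPKM, the median gene set to 0, 3 rescalings, no filter, and a filter at 5 FPKM. They gave 80 values of the 10 genes. The 2 filter settings cannot change the value of a single gene, so the 10 values under each repeat the main ones. Among the 80 values, 2 changed sign: P2ry12 to -0.08 after centring and Entpd1 to -0.02 after upper-quartile rescaling. P2ry6 ranged from -0.44 to -0.25 and P2rx4 from -0.25 to -0.06. Of the 80 values, 5 fell outside the counting interval that the gene had in the main setting. After centring these were P2ry6 (-0.42) and P2rx4 (-0.22). After upper-quartile rescaling they were P2ry6 (-0.44), P2rx4 (-0.25) and Entpd1 (-0.02). The median log2 ratio of the members at 1 FPKM or more, 0.02, became -0.10 after centring, -0.11 after upper-quartile rescaling and 0.18 after rescaling to TPM-like sums, where P2ry13 also passes 1 FPKM. No member that passed the filter on low values was 1.5-fold apart under these 8 alternatives. Adora2a, below that filter at 0.38, had 1.24 with a pseudocount of 0.1 and 0.60 at TPM-like sums. With a pseudocount of 0.1 and no filter, chosen after seeing the data, 1 member (Adora2a) was therefore past both 1.5-fold and 2-fold. Genes at least 2-fold apart, 54 in all, numbered 163 with a pseudocount of 0.1, 14 with 5, 102 at TPM-like sums, 33 with a filter at 5 FPKM and 595 with a pseudocount of 0.1 and no filter. Genes at least 1.5-fold apart, 463 in all, numbered 837, 183 and 730 under the first 3 of these and 2361 under the last. After centring, the 1.5-fold count split into 122 higher and 401 lower, against 257 and 206 before. Apart from what a changed scale or gene set does by construction, the cause of these shifts was not tested. With the longest transcript, intervals of 5 of the 10 members left out 1 instead of 2, and 3 left out the median ratio instead of 2, because more fragments are then assumed. Both counts with the longest transcript include Adora2a, which is below 1 FPKM. Over all genes the shares were 49.4% and 41.5% with the median length. They were not computed with the longest transcript, so these counts say nothing particular about the members.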
